A study of Mus musculus with 4 samples.

Results

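The Obox (oocyte-specific homeobox) genes of the mouse were followed in RNA sequencing libraries of 2-cell embryos with and without overexpression of Trim75. Members were taken by symbol from a list of 8 names, Obox1 to Obox8, and 7 of the 8 matched a row among the 27115 genes of the table. Obox4 was matched by no symbol and is not analysed here. Whether a row with another name, such as Obox4-ps35, takes its reads was not resolved. The members were contrasted as maternal genes (Obox1, Obox2, Obox5 and Obox7) and zygotic genes, of which only Obox3 remained. Obox6 and Obox8 belonged to neither class. All 7 passed the filter on low counts that preceded the test.

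Obox proteins are homeodomain transcription factors made in the oocyte and the early embryo. Transcripts of the maternal genes are laid down in the egg before fertilization, whereas Obox3 and Obox4 are switched on in the embryo as its own genome is activated. In mice, maternal and zygotic Obox proteins together help to place RNA polymerase II at genes of zygotic genome activation, and their homeodomain, like those of Otx and Crx, prefers the DNA motif GGATTA.

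The 4 libraries came from in vitro cultured embryos taken on day 2. The control group was 2 libraries labelled wild type, and the other group was 2 libraries labelled Trim75 OE, that is, with excess of Trim75, a gene of the tripartite motif family. The labels gave no mouse strain, no embryo number per library and no means of overexpression, and did not say whether each library had its own pool of embryos. Here p-values therefore measure the spread between libraries, which may be technical. Titles of the controls carried the tag L2C and those of the other group did not. If that tag names a stage, stage and overexpression cannot be told apart, which matters for genes whose transcripts decay or appear during the 2-cell stage. The library codes in the titles were consecutive within each group and differed between the groups. What the codes stand for is not given, and any difference that goes with them cannot be told apart from overexpression either. In such bulk libraries, fewer cells with a transcript and less transcript per cell also cannot be told apart.

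Counted reads ranged from 9965081 to 14599670 per library. Trim75 (ENSMUSG00000071089) had 1773 and 1703 reads in control embryos and 12091 and 10537 in Trim75 OE embryos, so the targeted transcript followed the labels. All 7 markers fixed for the 2-cell embryo and all 6 for oocyte-derived RNA had reads in every library. Summed markers of the 2-cell embryo lay between 913 and 1502 CPM (counts scaled to a common library size, with TMM factors), lowest in control replicate 1. The 8 defining cumulus cell markers summed to between 0 and 19.5 CPM, with no reads counted for Amh and Cyp19a1. A wider list of 14 cumulus genes, with Amhr2 the most abundant, summed to 87.2 and 52.5 CPM in control and 65.4 and 49.4 CPM in Trim75 OE embryos. The 7 sperm markers summed to between 0 and 19.97 CPM, with Prm2 the 1 marker that had reads.

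All 7 members lie in 1 cluster on chromosome 7 (mm10, positions 14331436 to 15839678), a span of 1508243 bases that also holds many Obox pseudogenes. From one end to the other stand Obox8 (14331436 to 14333557, minus strand), Obox7 (14659496 to 14665996, plus), Obox2 (15388721 to 15398545, plus), Obox1 (15388948 to 15556866, plus), Obox3 (15479825 to 15639902, minus), Obox5 (15750131 to 15759800, plus) and Obox6 (15833241 to 15839678, minus). All 7 are annotated as protein coding. The annotated span of Obox1 begins inside Obox2, and the pair share 59 exon bases on the same strand. The table held 45 rows with an Obox name, 38 of them pseudogenes.

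The upstream sequences of the maternal and zygotic genes are shown because members that differ in when they are transcribed share much of the DNA around their start. RefSeq (GRCm38.p6) gave a window of 300 bases, 250 before and 50 after the start, for 5 members. The starts are those of RefSeq: each lies inside the GENCODE span given above, downstream of its outer end, and that of Obox1 is far inside, so all distances below hold for the RefSeq starts alone. The most abundant maternal gene Obox5 (chr7:15750120-15750419, plus strand), the maternal gene Obox1 (chr7:15547007-15547306, plus strand) and the zygotic gene Obox3 (chr7:15639728-15640027, minus strand) read as follows, 5′ to 3′ on the gene's strand. Capitals mark the stretch that aligned between Obox3 and the maternal gene (in Obox3, its alignment with Obox5).
Obox5: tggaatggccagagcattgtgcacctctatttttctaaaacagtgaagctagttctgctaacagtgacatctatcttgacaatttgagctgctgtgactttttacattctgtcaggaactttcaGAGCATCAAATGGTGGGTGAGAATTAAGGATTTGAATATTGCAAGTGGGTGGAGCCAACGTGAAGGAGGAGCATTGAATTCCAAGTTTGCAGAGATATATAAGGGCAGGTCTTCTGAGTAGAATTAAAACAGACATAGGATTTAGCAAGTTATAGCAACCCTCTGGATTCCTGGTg
Obox1: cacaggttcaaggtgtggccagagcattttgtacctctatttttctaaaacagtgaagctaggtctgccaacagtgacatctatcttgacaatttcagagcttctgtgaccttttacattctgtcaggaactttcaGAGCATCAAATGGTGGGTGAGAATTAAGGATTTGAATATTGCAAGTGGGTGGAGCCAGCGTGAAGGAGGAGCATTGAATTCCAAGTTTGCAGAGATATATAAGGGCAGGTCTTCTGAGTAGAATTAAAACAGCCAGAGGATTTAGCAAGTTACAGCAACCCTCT
Obox3: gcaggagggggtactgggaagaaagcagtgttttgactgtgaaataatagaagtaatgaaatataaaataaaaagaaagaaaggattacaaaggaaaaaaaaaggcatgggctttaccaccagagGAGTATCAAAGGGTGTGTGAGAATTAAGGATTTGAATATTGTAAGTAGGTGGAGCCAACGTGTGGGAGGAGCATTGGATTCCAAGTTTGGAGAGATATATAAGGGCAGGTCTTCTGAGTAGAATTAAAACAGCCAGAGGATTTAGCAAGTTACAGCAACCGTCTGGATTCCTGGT
Of 175 aligned positions between Obox5 and Obox3, 162 were identical (92.6%), and of 164 between Obox1 and Obox3, 153 were identical (93.3%). Between pairs of maternal genes the aligned stretch was longer in every case, from 188 to 285 positions against 62 to 175 with Obox3. The 62 were for Obox2, whose window ends inside the stretch that the others share, so its aligned lengths are cut short. Identity was 97.1% between Obox5 and Obox7 and 100% between Obox1 and Obox2, and the lowest value of a maternal pair, 92.6% for Obox2 and Obox7, equalled that of Obox3 and Obox5. Upstream of the capitals the letters of Obox3 fell outside its best alignment with Obox5.

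GGATTA, searched on both strands, was found in 1 of the 5 windows, that of Obox3, starting 168 bases before the gene's start and outside the shared stretch. It was found in 2320 of 32851 RefSeq windows of the same length (7.1%). TATAA, the core letters of a TATA box, was chosen after the sequences were seen and searched on the gene's strand. It lay inside the shared stretch and started 29 bases before the start of Obox5, 28 before that of Obox3, 17 before that of Obox1 and 3 before that of Obox7, all counted from RefSeq starts. The window of Obox2 held no TATAA and ends before the place where it lies in Obox1. From the outer GENCODE starts of Obox1, Obox3, Obox5 and Obox7 the same letters lie downstream. Of all windows, 17.5% held it, and 3.5% held it between 40 and 20 bases before the start. Obox3 had another match 189 bases before its start. These matches describe letters in the window only.

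Because the family is made of near copies, some reads cannot be assigned to a single gene from sequence alone. In GENCODE M21 transcripts, 42.3% of the 100-base windows of Obox1 and 47.2% of those of Obox2 also occurred in transcripts of another gene, in every case each other. For Obox3 the share was 8.89%, chiefly with the pseudogene Obox3-ps3. It was 2.34% for Obox7 and 1.75% for Obox5, which share windows with each other, and 0% for Obox6 and Obox8. With windows of 50 bases the shares rose to 57.4% for Obox1, 65.2% for Obox2, 21.1% for Obox7, 20.2% for Obox3, 18.1% for Obox5 and 5.02% for Obox6, and stayed at 0% for Obox8. How multiply mapped reads were counted is not given in the sources used here, so the separate values of Obox1 and Obox2 are uncertain, those of Obox3 less so, and those of Obox6 and Obox8 rest on sequence of their own.

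Obox transcripts were abundant in every library. The 7 members together took 0.269% of all reads in control replicate 1 (exact 95% interval 0.266% to 0.272%) and 0.332% in control replicate 2 (0.329% to 0.335%). In Trim75 OE embryos they took 0.313% in replicate 1 (0.311% to 0.317%) and 0.448% in replicate 2 (0.445% to 0.452%). Such intervals cover counting error only, since reads without molecular identifiers include PCR copies. The groups overlapped, because the lower Trim75 OE library lay below the higher control. By mean CPM, Obox5 ranked 21 among the 16801 genes tested, and even Obox7, the least abundant member on this scale, had a higher mean than 81.5% of them.

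Levels of different members were compared on the FPKM scale, which is per exon length. In control embryos Obox5 stood highest, at 634 and 844 FPKM, and its libraries lay above those of every other member. Obox1 followed at 239 and 289 FPKM, and its range overlapped that of Obox8 at 273 and 214 FPKM. Next came Obox6 at 123 and 165 FPKM and Obox2 at 107 and 137 FPKM, whose ranges overlapped. Obox3, the zygotic member, was lower at 49.2 and 67.7 FPKM, and Obox7 was lowest at 42.1 and 35.7 FPKM. Obox5 thus made up 43.2% and 48.2% of the family's FPKM in the 2 control libraries.

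In Trim75 OE embryos Obox5 was again highest, at 814 and 1239 FPKM, and made up 48.7% and 52.7% of the family's FPKM. Obox1 stood at 235 and 418 FPKM. Obox6, at 218 and 202 FPKM, lay above Obox8, at 168 and 190.1 FPKM, which is the reverse of their order in control embryos. Obox2 stood at 147 and 196 FPKM, with a range that overlapped that of Obox8. Obox7, at 39.3 and 70.6 FPKM, and Obox3, at 48.7 and 35.7 FPKM, were the lowest and overlapped. That Obox3 and Obox7 also changed places in the order was therefore within the spread of the libraries.

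**Figure D1:**
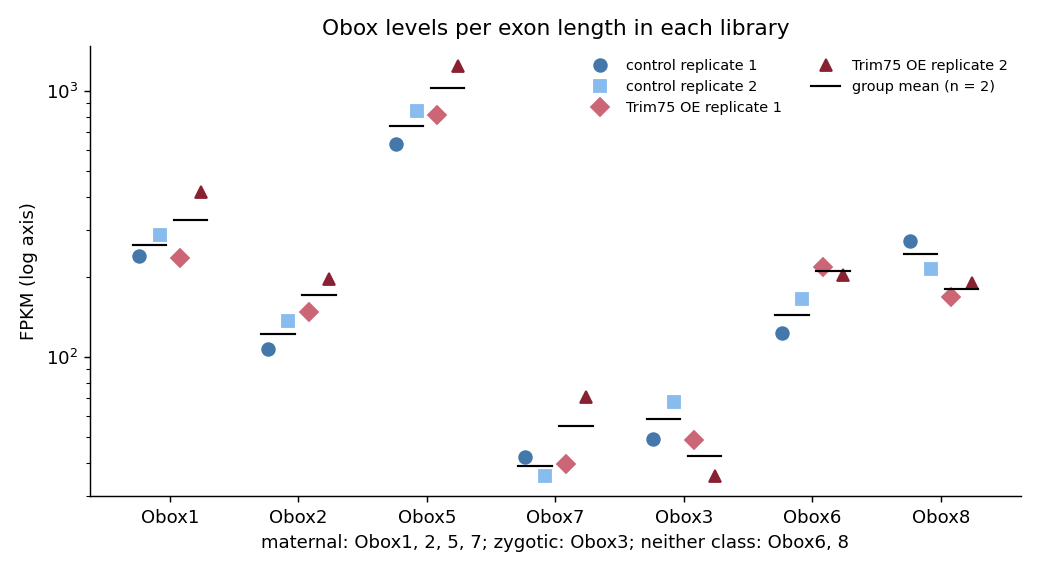
FPKM (log axis) of the 7 Obox members in each of the 4 libraries, with a black line at the mean of each group (n = 2). Trim75 OE replicate 2 is the highest library for all 4 maternal members and the lowest for Obox3, and for Obox6 both Trim75 OE libraries lie above both controls.

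The 4 maternal genes had higher mean levels in Trim75 OE than in control embryos, but none passed the test. For Obox1, Obox5 and Obox7, though less so for Obox2, 1 library carried most of the difference. In edgeR's quasi-likelihood test, with p-values adjusted by Benjamini-Hochberg over 16801 genes, 0 of the 7 members and 0% of all genes were called. DESeq2 called 0 of the 7 against 4.3% of genes, and 0 members had an unadjusted p under 0.05 in edgeR, against 11.2% of genes (7.71% higher and 3.53% lower in Trim75 OE). In edgeR the adjusted p of the members ran from 0.53 to 0.86, and the 95% interval of the log2 fold change held 0 for all 7. The intervals were wide, so they do not show that the levels were equal.

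Obox5, the predominant maternal transcript, had 1303 and 1804 CPM in control embryos and 1764 and 2767 CPM in Trim75 OE embryos. The groups overlapped, since Trim75 OE replicate 1 lay just below control replicate 2. The fitted log2 fold change was 0.54 ± 0.32 (SE; 95% interval -0.32 to 1.41), and the 2 Trim75 OE libraries differed from each other by 0.65 on the log2 scale. Without Trim75 OE replicate 2 the log2 fold change was 0.18.

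Obox1, a homeodomain protein of oocytes, had 437 and 549 CPM in the control and 454 and 830.2 CPM in the Trim75 OE libraries. Only Trim75 OE replicate 2 stood above both controls. The log2 fold change of 0.38 ± 0.37 (SE) was smaller than the log2 difference of 0.87 between the Trim75 OE libraries, and it turned to -0.12 when replicate 2 was left out.

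Obox2, the closest copy of Obox1, had 169 and 225 CPM in the control and 246 and 337 CPM in the Trim75 OE libraries. Here both Trim75 OE libraries were above both controls, with a log2 fold change of 0.57 ± 0.30 (SE; 95% interval -0.23 to 1.36; edgeR adjusted p = 0.62). It was 0.32 without Trim75 OE replicate 2 and 0.36 without control replicate 1. Because of the windows that Obox1 and Obox2 share, the division of reads between them is uncertain, and the direction of Obox1 alone depended on 1 library.

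Obox7 had 64.8 and 57.3 CPM in the control and 63.95 and 118 CPM in the Trim75 OE libraries. Trim75 OE replicate 1 lay between the controls and replicate 2 above them. The log2 fold change of 0.58 ± 0.43 (SE) fell to 0.07 without replicate 2. Summed, the 4 maternal genes reached 1973 and 2635 CPM in control and 2528 and 4053 CPM in Trim75 OE embryos, so the groups overlapped.

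Obox3, the zygotic member, had a lower mean in Trim75 OE embryos. Its level was 151 and 216 CPM in control embryos and 158 and 119 CPM in Trim75 OE embryos. On this scale the groups overlapped by a narrow margin, with Trim75 OE replicate 1 just above control replicate 1, while in FPKM that library was just below it (48.7 against 49.2). The log2 fold change was -0.41 ± 0.32 (SE; 95% interval -1.27 to 0.45), with an edgeR adjusted p of 0.81. It was -0.13 without control replicate 2 and -0.22 without Trim75 OE replicate 2, and -0.66 and -0.65 without the other library of each group.

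Set against the maternal genes within the same library, Obox3 took a smaller part in both Trim75 OE libraries. Obox3 reads made up 7.1% of the reads of Obox1, Obox2, Obox3, Obox5 and Obox7 in control replicate 1 (exact 95% interval 6.77% to 7.45%) and 7.59% in replicate 2 (7.34% to 7.85%). They made up 5.88% in Trim75 OE replicate 1 (5.63% to 6.13%) and 2.85% in replicate 2 (2.7% to 3.01%). The mean was 7.34% ± 0.34 in control and 4.36% ± 2.14 in Trim75 OE embryos (SD, n = 2), a difference of -2.98 percentage points. Both Trim75 OE libraries lay below both controls, yet the gap between the Trim75 OE libraries was larger than that between Trim75 OE replicate 1 and the controls. On the FPKM scale the share was 4.59% and 4.94% in control and 3.79% and 1.82% in Trim75 OE embryos. As a mean of fitted values, the log2 fold change of Obox3 was 0.92 below that of the 4 maternal genes, a difference of -0.92, which was -0.33 without Trim75 OE replicate 2. An exact permutation test of 2 libraries against 2 cannot give a p below 0.333, and the share was not tested.

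**Figure D2:**
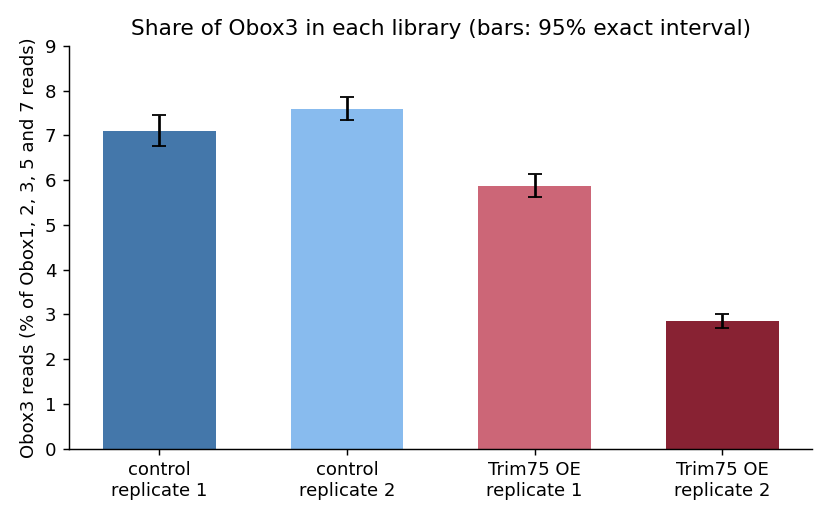
Obox3 reads as a percentage of the reads of Obox1, Obox2, Obox3, Obox5 and Obox7, 1 bar for each library, with exact 95% binomial intervals for counting error only. The share is 7.1% and 7.59% in the controls, 5.88% in Trim75 OE replicate 1 and 2.85% in Trim75 OE replicate 2.

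Obox6 and Obox8 are the members with the least sequence in common with the others, and for each the 4 libraries separated by group, in opposite directions. Obox6, which in mouse fibroblasts promotes reprogramming to pluripotency, had 159 and 222 CPM in the control and 297 and 284 CPM in the Trim75 OE libraries. Its log2 fold change of 0.61 ± 0.27 (SE; 95% interval -0.11 to 1.32) had the lowest edgeR adjusted p of the family, 0.53. Here the Trim75 OE libraries differed little from each other (291 ± 8.9 CPM, SD, n = 2), and the direction did not rest on replicate 2, since the log2 fold change was 0.64 without it, but it was 0.38 without control replicate 1.

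Obox8 had 306 and 249.9 CPM in the control and 199 and 232 CPM in the Trim75 OE libraries. Both Trim75 OE libraries were below both controls, with a log2 fold change of -0.37 ± 0.24 (SE; 95% interval -1.01 to 0.28; edgeR adjusted p = 0.74). Without control replicate 1 the log2 fold change was -0.22. The sum of Obox6 and Obox8 was nearly level, at 465 and 472 CPM in control and 496 and 516 CPM in Trim75 OE embryos.

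Over the family, 5 of 7 fitted log2 fold changes were above 0, as were 51.3% of those of all genes, and the median was 0.54, against 0.03 for all genes tested. In 2 members (Obox2 and Obox6) both Trim75 OE libraries exceeded both controls, a pattern seen in 24% of all genes, and in 1 (Obox8) both were lower, as in 19.6% of all genes. Among the 4420 genes with a mean of at least 50 CPM, a level that all 7 members reached, these shares were 23.8% and 25.5%, and the median log2 fold change was -0.004. The counts of separated members are therefore near the background. All 4 maternal members were highest in Trim75 OE replicate 2, and 5 of 7 members were lower in control replicate 1 than in control replicate 2, as were the summed markers of the 2-cell embryo (913 against 1502 CPM). The part of that difference between controls in the members' values was not tested.

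**Figure D3:**
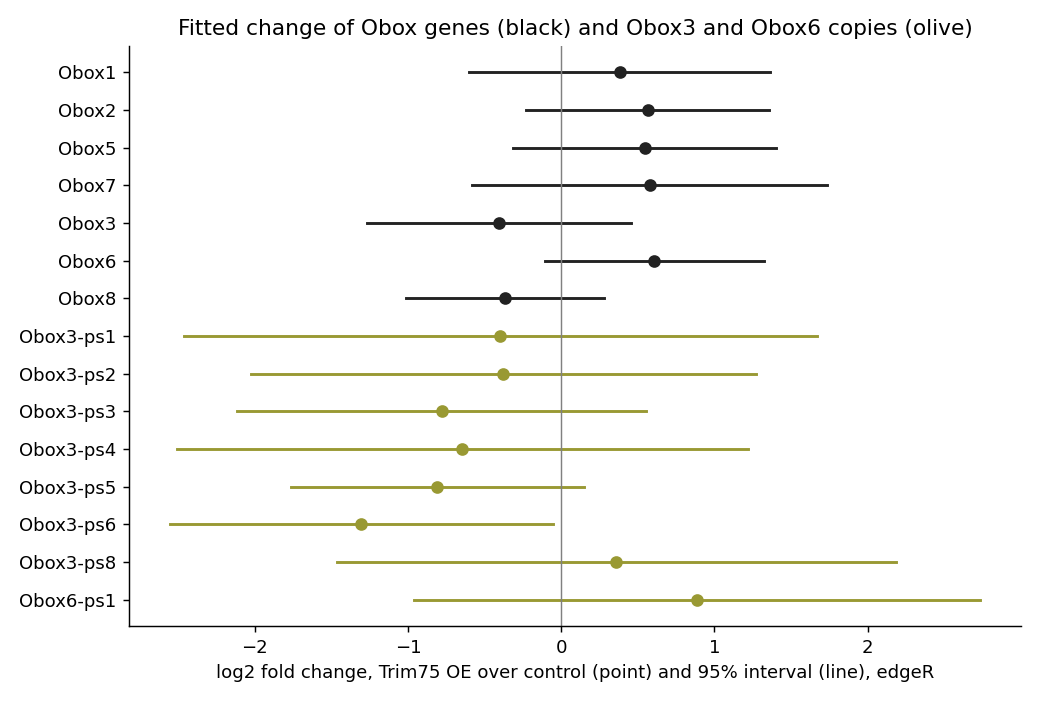
Fitted log2 fold change of Trim75 OE over control (points) with its 95% interval (lines) from edgeR, for the 7 members (black) and for the tested rows named as Obox3 and Obox6 pseudogenes (olive). Intervals of all 7 members cross 0, the 6 tested Obox3 copies of chromosome 7 lie left of 0, and Obox3-ps6 is the 1 row shown whose interval leaves out 0.

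Rows named as pseudogenes of Obox3 on chromosome 7 had lower values in Trim75 OE embryos, in the same direction as Obox3. There were 7 such rows, of which 6 were tested, and all 6 had a log2 fold change below 0, 4 of them with both Trim75 OE libraries under both controls, as in 19.6% of all genes. Summed, they measured 238 and 397 CPM in the control and 193 and 170.1 CPM in the Trim75 OE libraries, so that the groups were apart. Their sum exceeded the level of Obox3 itself in all 4 libraries. The most abundant, Obox3-ps5, had 80.2 and 117 CPM in control and 58.2 and 54.8 CPM in Trim75 OE embryos, with a log2 fold change of -0.81 ± 0.36 (SE; edgeR adjusted p = 0.53). Obox3-ps3, the next, had 52.4 and 92.01 CPM against 51.2 and 32.98 CPM. Named after its values were seen, Obox3-ps6, which lies inside the span of Obox3 on the same strand, went from 51.5 and 82.8 CPM to 29.1 and 25.3 CPM, a log2 fold change of -1.30 ± 0.46 (SE; edgeR adjusted p = 0.43). Since these rows and Obox3 resemble each other, they are not independent of it. With all Obox3-ps rows added to Obox3, an alternative chosen after the data were seen, its log2 fold change was -0.60 (edgeR adjusted p = 0.60).

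Obox3-ps8, a processed copy on chromosome 17, had 14.96 and 19.6 CPM in control and 16.6 and 27.8 CPM in Trim75 OE embryos, so the groups overlapped. Its log2 fold change was 0.36 ± 0.68 (SE; 95% interval -1.46 to 2.18), of the opposite sign to the copies on chromosome 7. As the interval holds 0, its direction is uncertain. Obox6-ps1, also on chromosome 17, had 11.9 and 12.1 CPM against 18.6 and 25.7 CPM, the direction of Obox6. Neither passed the test in edgeR, with adjusted p of 0.95 and 0.80.

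The 29 rows named as Obox4 pseudogenes were low and stood out in 1 library. Together they had 149 and 564 reads in control embryos and 1322 and 261 in Trim75 OE embryos, or 14.4, 38.7, 100.5 and 24.5 CPM. Of the 29 rows, 23 were highest in Trim75 OE replicate 1, and Trim75 OE replicate 2 lay between the controls. All 15 tested rows had a fitted log2 fold change above 0, as did 51.3% of all genes. In edgeR 0 were called at an adjusted p under 0.05 (0% of all genes) and 0 at an unadjusted p under 0.05 (11.2% of all genes). In 3 of the tested rows both Trim75 OE libraries were above both controls (24% of all genes), and in 0 both were below (19.6% of all genes). Rows low in Trim75 OE replicate 1 were less likely to pass the low-count filter, and the part of that filter in the shared sign of the tested rows was not tested. These rows are annotated as copies of 1 gene, so their shared direction is not that of independent genes. The most abundant, Obox4-ps35, annotated as a long noncoding RNA and named after its values were seen, had 56 and 132 reads in control and 380 and 101 in Trim75 OE embryos. Its log2 fold change was 1.41 ± 0.97 (SE; edgeR adjusted p = 0.76), the opposite sign to Obox3, so that a zygotic class that counted it would hold both signs. Trim75 OE replicate 1 thus carried the difference of the Obox4 copies, whereas replicate 2 carried most of that of Obox1, Obox5 and Obox7.

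**Figure D4:**
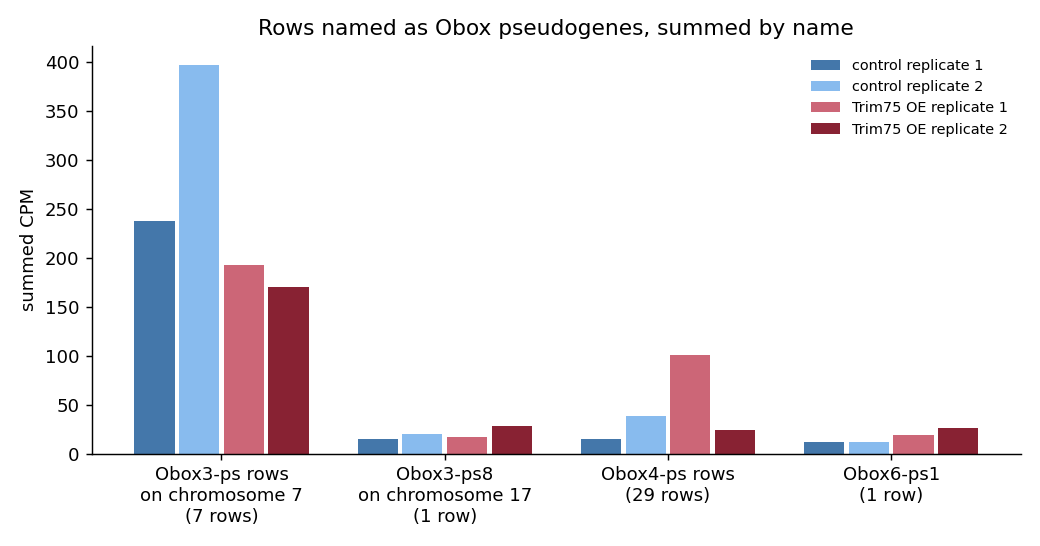
Summed CPM of the rows named as Obox pseudogenes, grouped by name and chromosome, 1 bar for each library. The 7 Obox3-ps rows of chromosome 7 are lower in both Trim75 OE libraries (193 and 170.1 CPM) than in both controls (238 and 397 CPM), and the 29 Obox4-ps rows are highest in Trim75 OE replicate 1 (100.5 CPM).

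The cluster also holds 10 rows without an Obox name, and none approached the level of the members. The 2 most abundant were Nlrp5-ps (ENSMUSG00000041596), with 18.5 and 25.8 CPM in control and 7.38 and 15.03 CPM in Trim75 OE embryos, and Gtpbp4-ps3 (ENSMUSG00000099056), with 13.99 and 17.4 against 14.1 and 11.7 CPM. Neither passed in edgeR, with adjusted p of 0.81 and 0.97. Sult2a8, the protein-coding gene among the 10, had 6 reads in Trim75 OE replicate 1 and 0 in the other libraries.

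Genes whose level followed the summed Obox CPM most closely over the 4 libraries were Ngdn, Pzp and Rab3il1. Likeness was the root mean square difference between profiles of log2 CPM centred on their mean, over 7473 genes with a mean of at least 20 CPM. It was 0.01 for Ngdn, 0.02 for Pzp and 0.02 for Rab3il1. With 4 libraries, 37 genes came within 0.1, so the order among them carries little. Ngdn, for example, stood at 84.3 and 109 CPM in control and 102 and 154 CPM in Trim75 OE embryos, where the summed Obox level was 2589, 3324, 3182 and 4688 CPM.

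Among other homeobox genes of the oocyte and early embryo, 27 of 40 listed were tested, and edgeR called 0. Of these, 19 had a log2 fold change above 0 and 8 below, where 51.3% of all genes were above 0. With the groups apart, 10 were higher (24% of all genes) and 4 lower (19.6% of all genes). The median was 0.39, against 0.03 for all genes. The 2 most abundant were Sebox, a maternal homeobox gene, at 714 and 404 CPM in control and 395 and 381 CPM in Trim75 OE embryos, and Cphx1 at 277 and 284 against 316 and 339.7 CPM. DESeq2 called 1, against 4.3% of all genes. It was Tgif1, named after its values were seen, with 0 CPM in both controls and 8.06 and 6.39 CPM in the Trim75 OE libraries. Tgif1 passed the low-count filter only through the Trim75 OE libraries, which fixed its direction.

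Other transcription factors of zygotic genome activation showed no common direction. Of 27 tested out of 28, 13 lay above and 14 below 0, where 51.3% of all genes were above 0. The median log2 fold change was -0.01, against 0.03 for all genes. With the groups apart, 4 were higher (24% of all genes) and 6 lower (19.6% of all genes). EdgeR called 0, against 0% of all genes, and DESeq2 called 0, against 4.3% of all genes. In edgeR 0 had an unadjusted p under 0.05, against 11.2% of all genes. Klf17, a zinc finger factor, had 958 and 1016 CPM in control and 784 and 964 CPM in Trim75 OE embryos, and Yap1, a transcriptional coactivator, had 475 and 562 against 645 and 448 CPM.

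Zygotic genes of the 2-cell stage numbered 36 tested of 43, with 23 above and 13 below 0, where 51.3% of all genes were above 0. Of these, 11 were apart and higher (24% of all genes) and 4 apart and lower (19.6% of all genes). The median was 0.31, against 0.03 for all genes. The most abundant, AF067063, had 544 and 811 CPM in control and 535 and 542 CPM in Trim75 OE embryos, and Tcstv1 had 247 and 436 against 356 and 497 CPM. DESeq2 called 1, against 4.3% of all genes, and edgeR called 0, with 2 at an unadjusted p under 0.05, against 11.2% of all genes. The gene that DESeq2 called, named after its values were seen, was Gm4340, with 58.5 and 68.1 CPM in control and 154 and 214 CPM in Trim75 OE embryos.

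Maternal transcripts outside the Obox family numbered 49 tested of 52, with 30 above and 19 below 0, where 51.3% of all genes were above 0. Of these, 17 were apart and higher (24% of all genes) and 9 apart and lower (19.6% of all genes). The median was 0.20, against 0.03 for all genes. Btg4, an adaptor of maternal mRNA decay, had 4228 and 5492 CPM in control and 4422 and 6260.2 CPM in Trim75 OE embryos, so that, like Obox1, its replicate 1 lay between the controls and replicate 2 above both. Spin1, a chromatin reader, had 3635 and 3493 against 5182 and 5373 CPM, with the groups apart. DESeq2 called 8 of the 49, against 4.3% of all genes, and edgeR called 0, with 14 at an unadjusted p under 0.05, against 11.2% of all genes. Of the 8, 7 were higher and 1 was lower. The lower one, named after its values were seen, was H1f8, an oocyte linker histone with 681 and 656 CPM in control and 249 and 267 CPM in Trim75 OE embryos. Summed CPM of the list was 29210 and 30228 in control and 34654 and 39539 in Trim75 OE embryos, with Trim75 OE replicate 2 highest, as it was for the maternal Obox genes. The part of that sum in the values of the Obox genes was not tested.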

How the data were processed

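RNA was measured in 4 libraries (2 control, 2 Trim75 OE). The tools named per the submitters' processing notes are HISAT2, featureCounts, FastQC and Trim Galore, with the build mm10. The sources used here do not give versions, annotation, or settings for strand and multiply mapped reads. As deposited, the counts are raw whole reads per gene. The FPKM values deposited by the authors are per exon length and counted reads, and the lengths they imply for the members match GENCODE M21 exons.

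The test used edgeR (4.0.16) under R (4.3.3): filterByExpr, TMM factors, and glmQLFit and glmQLFTest on group, with Benjamini-Hochberg adjustment over 16801 genes at 0.05. The standard error is the log2 fold change divided by the square root of F. CPM uses TMM-scaled library sizes. The procedure was run on simulated counts whose changes were larger than those fitted for any member. That run therefore does not show whether changes of the members' size would be found. In the real data the lowest edgeR adjusted p over all genes was 0.32. Sequence windows came from GENCODE M21 transcripts and promoters from RefSeq, aligned locally with Biopython (1.88). Of 27115 identifiers, 26680 were in GENCODE M21.

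Members and lists were chosen with earlier results of these data known. Genes named were all members, Trim75, the 2 most abundant Obox pseudogene rows and other rows of the cluster, the 3 with the closest profile, and the 2 most abundant of each list (1 for cumulus and sperm markers), where none passed the threshold. Outside that rule, and chosen after their values were seen, were Obox3-ps6, Obox3-ps8, Obox4-ps35, Obox6-ps1, Sult2a8, Tgif1, Tgif2, Meis2, Otx2, Gm4340 and H1f8. The wider cumulus list had 4 of 14 genes tested, with Amhr2 the most abundant at 48.2 CPM in control and 34.2 CPM in Trim75 OE embryos and a median log2 fold change of -0.18, and the wider sperm list had 1 of 10, Prm2, at -1.07. Alternatives were other scalings, no filter, a replicate term, each library left out, DESeq2 (1.42.0), limma (3.58.1) with voom or on log2(FPKM + 1) and log2(FPKM + 0.1), and pseudogene rows added to their gene. A lone library left in a group took its variance from the other group. Figures used matplotlib (3.10.9).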

Additional observations from a re-analysis of the deposited data

How the results depend on the processing

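With all libraries fitted, no member passed the threshold in edgeR, DESeq2 or limma. The lowest adjusted p was 0.43, for Obox6 in limma voom. Since edgeR and limma called 0 of all genes there, Trim75 included, the members' place above the threshold in those fits says little. Of 98 refits of single members, 97 kept the direction of the main fit. The exception was Obox1, whose log2 fold change ran from -0.12 to 0.73 with a library left out and turned negative without Trim75 OE replicate 2. The same library set much of the contrast between Obox3 and the maternal genes, whose difference in log2 fold change ran from -1.46 to -0.33 with a library left out. The Obox3 share differed between groups by -2.98 percentage points, by -4.49 to -1.47 with a library left out, by -1.96 on the FPKM scale, and by -6.71 without Obox5, the gene with most reads in the denominator. DESeq2 called 652 genes where edgeR called 0 (1888 at an unadjusted p under 0.05), and gave Trim75 an adjusted p of 3.21e-17 at a log2 fold change of 2.73, where edgeR gave 0.32. Fits with a library left out had a lone library in a group, so only their fold changes are read here. The labels number replicates 1 and 2 in both groups, but deviations of same-numbered libraries correlated at 0.01 and nothing else pairs them. With the replicate block, 0 genes and 0 members were called and the Obox3 contrast was -0.88. Depth was not limiting for the members, the lowest of which had 672 reads in a library, while single Obox4-ps rows had between 0 and 380.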

Other observations

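Among the other homeobox genes listed, 4 of 27 tested had an unadjusted p under 0.05 in edgeR. Of all genes, 11.2% did (7.71% higher and 3.53% lower in Trim75 OE). All 4 listed genes had higher values in Trim75 OE embryos and were named after their values were seen. For Otx2, Tgif1 and Tgif2 that direction was fixed by the low-count filter, which they passed only through the Trim75 OE libraries. Meis2, a TALE homeodomain factor, had 78.2 and 131 CPM in control and 207 and 287 CPM in Trim75 OE embryos, with the groups apart (edgeR adjusted p = 0.36). Otx2, whose homeodomain prefers the same motif as that of Obox proteins, had 0.19 and 0.14 CPM against 3.12 and 4.98 CPM (edgeR adjusted p = 0.32). Tgif2 had 0.29 and 0.21 CPM in control and 10.8 and 1.41 CPM in Trim75 OE embryos, so that replicate 1 carried its difference, and Tgif1 had 0 CPM in both controls. At such levels the control libraries held few reads, and no gene of the list passed the adjusted threshold in edgeR.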
